A study of Mus musculus with 9 samples.

Results

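Glycolysis and the citric acid cycle were followed through 56 genes in the retina of mice at postnatal day 21. The members were the listed gene symbols of the 2 pathways and of the transporters, lactate enzymes and creatine kinases beside them, and were found by symbol among the 55487 genes of the RNA-seq table. They took 57 rows, because Aldoa stands under 2 gene identifiers, and all 57 rows passed the filter on low values that left 21330 genes for testing. Whole retina from C57 BL/6J mice was sequenced in 9 libraries, 3 for each of 3 genotypes, with the retinas of 2 animals pooled in each library. Cre- mice, labelled WT and bred from Cre-negative parents, carried no Cre. tHet mice carried Chx10::Cre-GFP and 1 floxed copy each of Tet1, Tet2 and Tet3, the genes of the enzymes that oxidise methylated cytosine. Tet tcKO mice carried Chx10::Cre-GFP with both copies of the same 3 genes floxed. The Chx10 driver expresses Cre in retinal progenitor cells, in a mosaic manner. To reduce mosaicism, the study in-crossed Cre-positive animals so that tHet and Tet tcKO mice had 2 functional copies of the transgene. The photoreceptors, the other neurons and the Muller glia descend from cells in which the deletion could occur, while vessels, microglia and pigment epithelium do not.

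Glycolysis splits glucose into pyruvate, lactate dehydrogenase turns pyruvate into lactate, and the citric acid cycle oxidises the part of the pyruvate that enters the mitochondrion as acetyl-CoA. Photoreceptors are known for converting most of their glucose to lactate even when oxygen is present. Rods also secrete a truncated product of Nxnl1, the rod-derived cone viability factor, which binds a complex of basigin and the glucose transporter GLUT1 on cones.

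Levels are given as CPM, the reads of a gene scaled to the same total of reads assigned to genes in each library. Between 9627927 and 21108256 reads were assigned to genes per library, so that 1 read was worth 0.0474 to 0.104 CPM. In Tet tcKO replicate 3 the single feature CT010467.1 took 28.7% of the reads and in tHet replicate 3 it took 3.72%, against at most 0.226% elsewhere, and every other gene of those libraries reads low to that extent. Over all tested genes the median log2 difference of Tet tcKO from Cre- was 0.001 in CPM and 0.14 with CT010467.1 left out of the totals. As a check of the genotype, Tet3 stood at 213, 268 and 223 CPM in Cre-, 268, 288 and 155 CPM in tHet, and 108, 152 and 99.2 CPM in Tet tcKO. Tet1 and Tet2 overlapped between the genotypes, and whether their reads lay in the deleted exons cannot be seen in counts of whole genes.

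Among the members lower in Tet tcKO than in both other genotypes were Slc16a3, Pfkfb2, Hk1 and Pfkl, whose promoters are not shown. As examples the promoters of 5 such members are shown, of which Hk2 was already lower in tHet. Each is the 250 bases before the RefSeq start on GRCm38.p6, 5′ to 3′ on the gene's strand, and capitals mark ACGTG, the core bound by hypoxia-inducible factors and part of the E-box CACGTG, or TAATCC, the core bound by the photoreceptor factors CRX and OTX2, on either strand.
Hk2, chr6:82774455-82774704, minus strand: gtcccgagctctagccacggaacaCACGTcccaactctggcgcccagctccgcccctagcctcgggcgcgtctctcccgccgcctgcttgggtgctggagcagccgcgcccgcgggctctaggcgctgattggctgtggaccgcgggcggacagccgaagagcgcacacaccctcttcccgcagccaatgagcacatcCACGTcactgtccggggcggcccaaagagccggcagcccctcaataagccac
Pfkp, chr13:6648772-6649021, minus strand: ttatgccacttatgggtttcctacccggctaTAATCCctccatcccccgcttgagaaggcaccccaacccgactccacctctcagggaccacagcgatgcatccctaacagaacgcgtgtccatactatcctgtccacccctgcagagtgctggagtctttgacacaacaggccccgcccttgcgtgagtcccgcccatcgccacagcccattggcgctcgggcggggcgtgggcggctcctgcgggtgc
Slc16a1, chr3:104638414-104638663, plus strand: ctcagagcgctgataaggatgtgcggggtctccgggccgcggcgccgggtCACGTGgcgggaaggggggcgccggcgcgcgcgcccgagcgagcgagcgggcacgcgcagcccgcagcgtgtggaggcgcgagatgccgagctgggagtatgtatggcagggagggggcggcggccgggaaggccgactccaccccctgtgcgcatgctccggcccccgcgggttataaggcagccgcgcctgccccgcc
Nxnl1, chr8:71566650-71566899, minus strand: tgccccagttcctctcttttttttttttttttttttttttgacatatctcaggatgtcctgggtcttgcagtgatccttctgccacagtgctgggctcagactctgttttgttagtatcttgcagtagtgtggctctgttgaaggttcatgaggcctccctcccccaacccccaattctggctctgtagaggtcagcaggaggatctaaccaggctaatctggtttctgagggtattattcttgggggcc
Nxnl2, chr13:51170775-51171024, plus strand: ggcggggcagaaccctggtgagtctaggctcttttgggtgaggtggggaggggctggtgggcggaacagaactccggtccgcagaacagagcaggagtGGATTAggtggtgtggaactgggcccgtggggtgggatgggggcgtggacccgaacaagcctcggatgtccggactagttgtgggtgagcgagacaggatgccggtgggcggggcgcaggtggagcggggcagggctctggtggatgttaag
ACGTG stood in the Hk2 window at 2 places and in the Slc16a1 window as a palindromic E-box, while TAATCC stood once each in the Pfkp and Nxnl2 windows. The Nxnl1 window held neither, and it held no CpG, the dinucleotide in which cytosine is methylated, against 25 CpG for Hk2, 16 for Pfkp, 14 for Nxnl2 and 37 for Slc16a1. Over the 75 promoters that matched 51 of the 56 symbols, ACGTG was found in 38.7% and TAATCC in 10.7%. Over all 32851 promoters of the same length the shares were 16.6% and 6.25%, and the median number of CpG was 6 against 15 for the members. ACGTG stood in 9 of 22 promoters of citric acid cycle genes and in 5 of 12 promoters of the 9 called genes. These matches are a description of letters, and methylation of the windows was not analysed here.

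The comparison of Tet tcKO with Cre- asked how the glucose pathways of the retina stood after loss of the 3 enzymes. In all, 9 members were lower in Tet tcKO by at least 1 on the log2 scale at an adjusted p under 0.01, and none was higher by that rule. All 9 stood in the groups listed as glucose uptake, the first steps of glycolysis or lactate transport: Nxnl1, Nxnl2, Hk1, Hk2, Pfkl, Pfkp, Pfkfb2, Slc16a1 and Slc16a3. The glucose transporter genes Slc2a1 and Slc2a3 were not among them. Of all tested genes 1.57% were called lower and 2.03% higher in the same comparison, and 3.60% in either direction. Fold changes and adjusted p-values throughout are from limma on log2(CPM + 0.5) with Benjamini-Hochberg adjustment over all 21330 genes, which understates the change of genes at low CPM. At an adjusted p under 0.05 with no fold threshold 13 members were lower and 2 higher, against 2.98% and 3.53% of all tested genes. At an unadjusted p under 0.05 the members were 21 and 3, against 7.47% and 8.59%. In 38 of the 57 rows the log2 fold change was below 0, against 49.9% of all tested genes, and the median was -0.23 against 0.001. With CT010467.1 left out of the totals, 6 members were called lower and that median was -0.07 against 0.14. The split over all tested genes then moved from 434 higher and 334 lower to 607 higher and 221 lower. The count of members was 4 without Cre- replicate 3, 4 without Tet tcKO replicate 1 and 4 without Tet tcKO replicate 3. Calls against Cre- over all tested genes went from 768 to 422, 360 and 430 in the same fits, in that order. In bulk tissue fewer cells of a type and less RNA per cell cannot be told apart, and this holds for every difference given here.

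**Figure D1:**
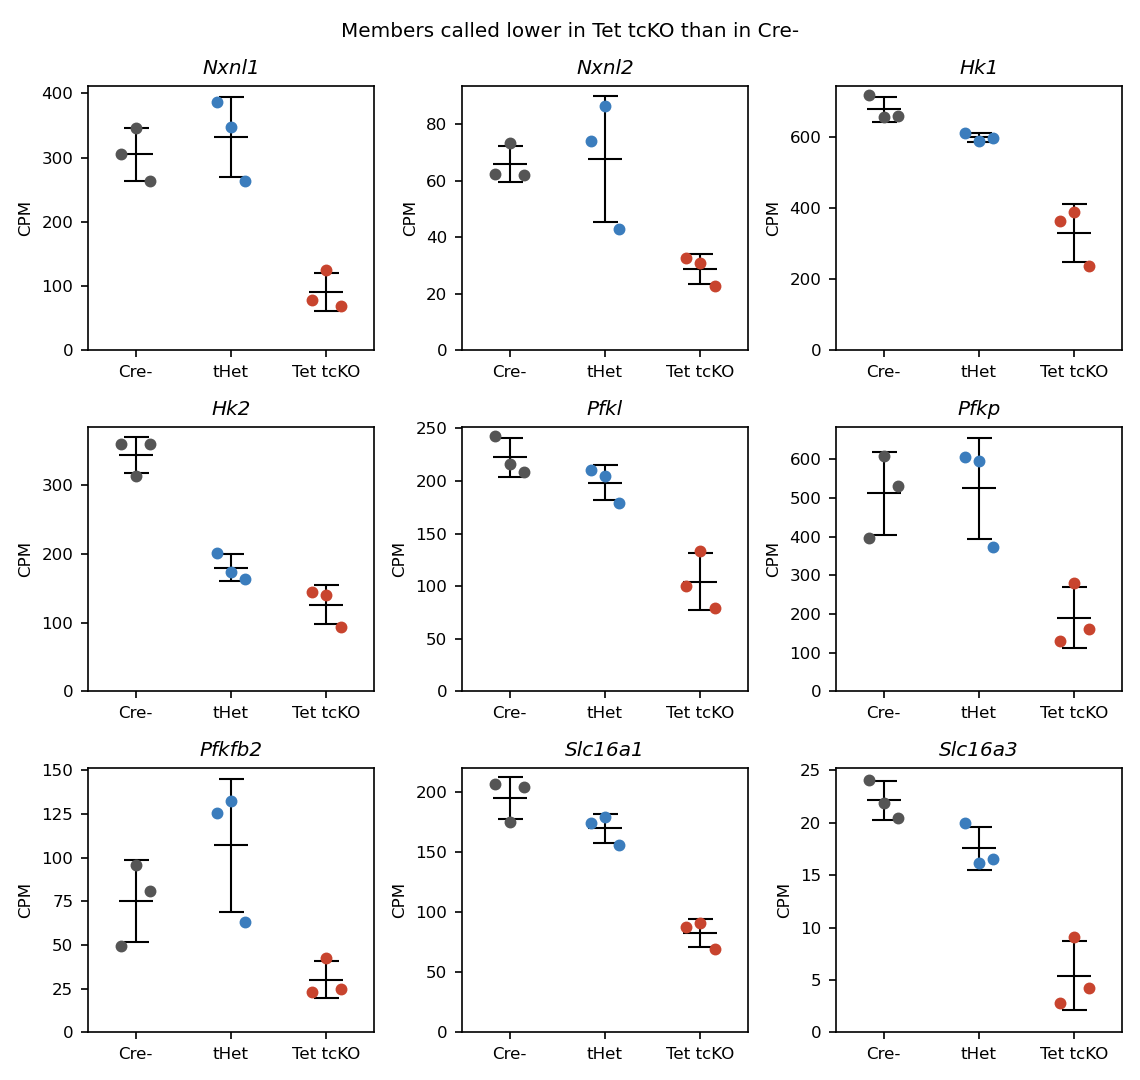
CPM of the 9 members called lower in Tet tcKO than in Cre-, by genotype on the x axis, with 1 point per library and the mean and SD of 3 libraries in black. For each of the 9 genes all 3 Tet tcKO points lie below all 3 Cre- points, and for Hk1, Hk2 and Slc16a3 the tHet points lie between them.

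The retina whose RNA was measured had also changed in its markers. The summed CPM of 8 rod genes ranged from 33042 to 39484 in Cre-, from 28625 to 35480 in tHet and from 3312 to 11283 in Tet tcKO. Of these genes 7 of 8 were called lower in Tet tcKO than in Cre-. The sum of 8 cone genes ranged from 481 to 601 CPM, from 567 to 609 CPM and from 1737 to 2718 CPM in the same order, and 7 of 8 were called higher. The Muller glia sum ranged from 1631 to 2121 CPM in the Cre- libraries and from 1295 to 1599 in those of Tet tcKO, but its 7 genes split, with Glul and Rlbp1 called lower and Apoe called higher. The pigment epithelium sum ranged from 35.8 to 125 CPM in Cre-, from 101 to 129 CPM in tHet and from 20.2 to 28.7 CPM in Tet tcKO. Over the 3 Tet tcKO libraries the microglia sum reached 25.6 to 48.9 CPM, the endothelium sum 174 to 262 CPM and the ciliary body and stroma sum 245 to 306 CPM, against 16.7 to 20.7, 137 to 175 and 37.3 to 63.7 CPM in Cre-. In tHet these 3 sums reached 22.8 to 29.04, 110 to 137 and 153 to 230.3 CPM. The part of these markers in the differences of the members was not tested.

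Of the 6 genes grouped under glucose uptake Nxnl1 and Nxnl2, which are not transporter genes, were called lower, against 1.57% of all tested genes. Slc2a1, which encodes GLUT1, measured 105, 72.7 and 93.5 CPM in Cre-, 89.2, 103 and 83.3 CPM in tHet, and 112, 93.7 and 85.9 CPM in Tet tcKO. Slc2a3, which encodes the neuronal transporter GLUT3, lay between 36.6 and 72.0 CPM in the 9 libraries, and neither transporter separated Tet tcKO from the other genotypes. Nxnl1 (chr8:71560555-71566601, minus strand) measured 305, 346 and 263 CPM in Cre-, 386, 347 and 264 CPM in tHet, and 78.8, 125 and 69.2 CPM in Tet tcKO. The Tet tcKO libraries did not overlap either of the other genotypes, and the log2 fold change was -1.78 ± 0.24 (SE) against Cre- at an adjusted p of 7.3e-05. Nxnl2 (chr13:51171022-51175188, plus strand), the paralog of Nxnl1, measured 62.5, 73.2 and 62.0 CPM in Cre-, 74.0, 86.4 and 42.8 CPM in tHet, and 32.8, 31.0 and 22.9 CPM in Tet tcKO, a log2 fold change of -1.19 ± 0.25 against Cre- (adjusted p = 0.0042). Bsg, which encodes basigin and was the most abundant gene of the group, had a mean of 591 ± 44.0 CPM (SD, n = 3) in Cre- libraries against 380.4 ± 68.4 in the Tet tcKO ones, short of the call at an adjusted p of 0.17. Txnip, an inhibitor of glucose uptake that responds to glucose, was the member with the largest value above 0. It measured 5.77, 3.05 and 4.93 CPM in Cre-, 4.39, 5.92 and 10.3 CPM in tHet, and 11.5, 10.9 and 11.0 CPM in Tet tcKO. All Tet tcKO libraries exceeded the others, with a log2 fold change of 1.23 ± 0.32 against Cre- at an adjusted p of 0.022, over the threshold of 0.01. It was called higher in 3 of 20 other fits, with the replicate block (adjusted p = 0.0038), with only the 6 libraries compared and without tHet replicate 3. It shared 12.1% of its 100-base exon windows with the antisense gene Gm15441, and the strand setting of the counting is not given in the sources used here.

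The steps from glucose to triose phosphates held most of the lowered genes. Of their 12 rows 5 were called lower and 0 higher, 8 were lower at an adjusted p under 0.05 with no fold threshold, and in 10 every Tet tcKO library lay below every Cre- library. Of all tested genes 1.57% were called lower, 2.03% were called higher and 2.98% were lower at an adjusted p under 0.05. Over all 57 rows the libraries were separate and lower in 24 and separate and higher in 4, against 9.60% and 10.0% of all tested genes. The median log2 fold change of the 12 rows was -0.98.

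Hexokinase, which traps glucose in the cell by phosphorylation, was measured as Hk1, the form of most tissues, and Hk2, the form that photoreceptors are known to carry. Hk2 (chr6:82725025-82774454, minus strand) measured 359.6, 314 and 359.7 CPM in Cre-, 202, 174 and 164 CPM in tHet, and 145, 140.5 and 93.1 CPM in Tet tcKO. The 3 genotypes did not overlap, and the Tet tcKO mean was 36.6% of the Cre- mean (log2 fold change -1.47 ± 0.22, adjusted p = 0.00019). Hk1 (chr10:62268855-62379908, minus strand) measured 718, 655 and 656 CPM in Cre-, 609.9, 588 and 595 CPM in tHet, and 363, 388 and 236 CPM in Tet tcKO (log2 fold change -1.07 ± 0.24 against Cre-, adjusted p = 0.0071). Per kb of exon, Hk1 stood at 79.3 CPM and Hk2 at 57.7 CPM in Cre-, and at 38.6 and 21.1 CPM in Tet tcKO.

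Phosphofructokinase commits glucose to glycolysis and has 3 subunit genes, the platelet, liver and muscle forms. Pfkp (chr13:6579768-6648777, minus strand) measured 397, 608 and 530.2 CPM in Cre-, 606, 594 and 373 CPM in tHet, and 131, 279.6 and 161 CPM in Tet tcKO (log2 fold change -1.48 ± 0.28 against Cre-, adjusted p = 0.0021). Pfkl (chr10:77986947-78010083, minus strand) measured 243, 216 and 208 CPM in Cre-, 210.3, 205 and 179 CPM in tHet, and 100.4, 133 and 79.6 CPM in Tet tcKO (log2 fold change -1.12 ± 0.22, adjusted p = 0.0025). The Tet tcKO libraries lay below both other genotypes for Pfkp and for Pfkl. Pfkm overlapped instead, at 124, 87.3 and 98.2 CPM in Cre-, 82.8, 96.8 and 97.7 CPM in tHet, and 149.99, 119 and 70.1 CPM in Tet tcKO. Pfkfb2 (chr1:130689182-130729253, minus strand), a bifunctional enzyme that makes and removes fructose 2,6-bisphosphate, the activator of phosphofructokinase, measured 49.6, 95.6 and 80.6 CPM in Cre-, 125, 132 and 63.3 CPM in tHet, and 23.2, 42.5 and 24.9 CPM in Tet tcKO. Its log2 fold change against Cre- was -1.31 ± 0.30 at an adjusted p of 0.0088, and 15.2% of its windows are shared with Gm29427 and Yod1. Pfkfb3, its paralog, had means of 35.0 ± 3.20 CPM (Cre-) and 18.6 ± 5.34 (Tet tcKO, SD, n = 3) at a limma adjusted p of 0.020. Aldolase cleaves the sugar bisphosphate, and Aldoa had means of 833 ± 94.6 CPM (Cre-) and 427 ± 116 (Tet tcKO, limma adjusted p = 0.020), just short of the fold threshold at a log2 fold change of -0.995, and was called lower by edgeR and DESeq2. Aldoc averaged 231 ± 34.7 and 124 ± 42.9 CPM (limma adjusted p = 0.036).

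From triose phosphates to pyruvate no member of 6 was called by limma. Of the 6, 4 were lower at an unadjusted p under 0.05, against 7.47% of all tested genes. None was called by edgeR or DESeq2, and the median log2 fold change was -0.77. DESeq2 gave the 4 adjusted p of 0.000205 (Pkm), 0.000766 (Pgk1), 0.00167 (Pgam1) and 0.00377 (Gapdh), with fold changes short of the threshold. By edgeR their adjusted p ranged from 0.0122 to 0.0284, also short of the fold threshold. Pkm, the pyruvate kinase gene and the most abundant member in CPM in Cre-, measured 1657, 1360.0 and 1467 CPM in Cre-, 1323, 1320.5 and 1310.1 CPM in tHet, and 1028, 918 and 585 CPM in Tet tcKO. The Tet tcKO libraries were the 3 lowest, at a log2 fold change of -0.86 ± 0.28 and an adjusted p of 0.073 by limma. Pgk1, which makes ATP in this stretch, was lower at an adjusted p of 0.033 with a log2 fold change of -0.82 ± 0.23, and 51.7% of its windows occur in other genes. The same share was 33.9% for Pgam1, 20.9% for Gapdh, 20.4% for Eno1, 12.3% for Pkm and 0% for Eno2. Counts of whole genes do not separate the spliced forms PKM1 and PKM2.

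Of the 5 lactate genes Slc16a1 and Slc16a3 were called lower, against 1.57% of all tested genes. The dehydrogenase genes Ldha and Ldhb and the transporter gene Slc16a7 were not called. Ldha, which favours the step from pyruvate to lactate, measured 397, 375 and 339 CPM in Cre-, 334, 321 and 272 CPM in tHet, and 357, 285 and 224 CPM in Tet tcKO, so Cre- and Tet tcKO overlapped. Slc16a3 (chr11:120948480-120960868, plus strand), which encodes the lactate exporter MCT4, measured 24.1, 21.9 and 20.5 CPM in Cre-, 19.9, 16.2 and 16.5 CPM in tHet, and 2.85, 9.09 and 4.28 CPM in Tet tcKO. No library of Tet tcKO reached the other genotypes, and its log2 fold change of -2.08 ± 0.31 against Cre- was the lowest of the 57 rows (adjusted p = 0.00019). Slc16a1 (chr3:104638668-104658462, plus strand), which encodes the monocarboxylate transporter MCT1, measured 207, 175 and 204 CPM in Cre-, 174, 179 and 156 CPM in tHet, and 88.2, 91.1 and 69.6 CPM in Tet tcKO (log2 fold change -1.24 ± 0.20, adjusted p = 0.00048).

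**Figure D2:**
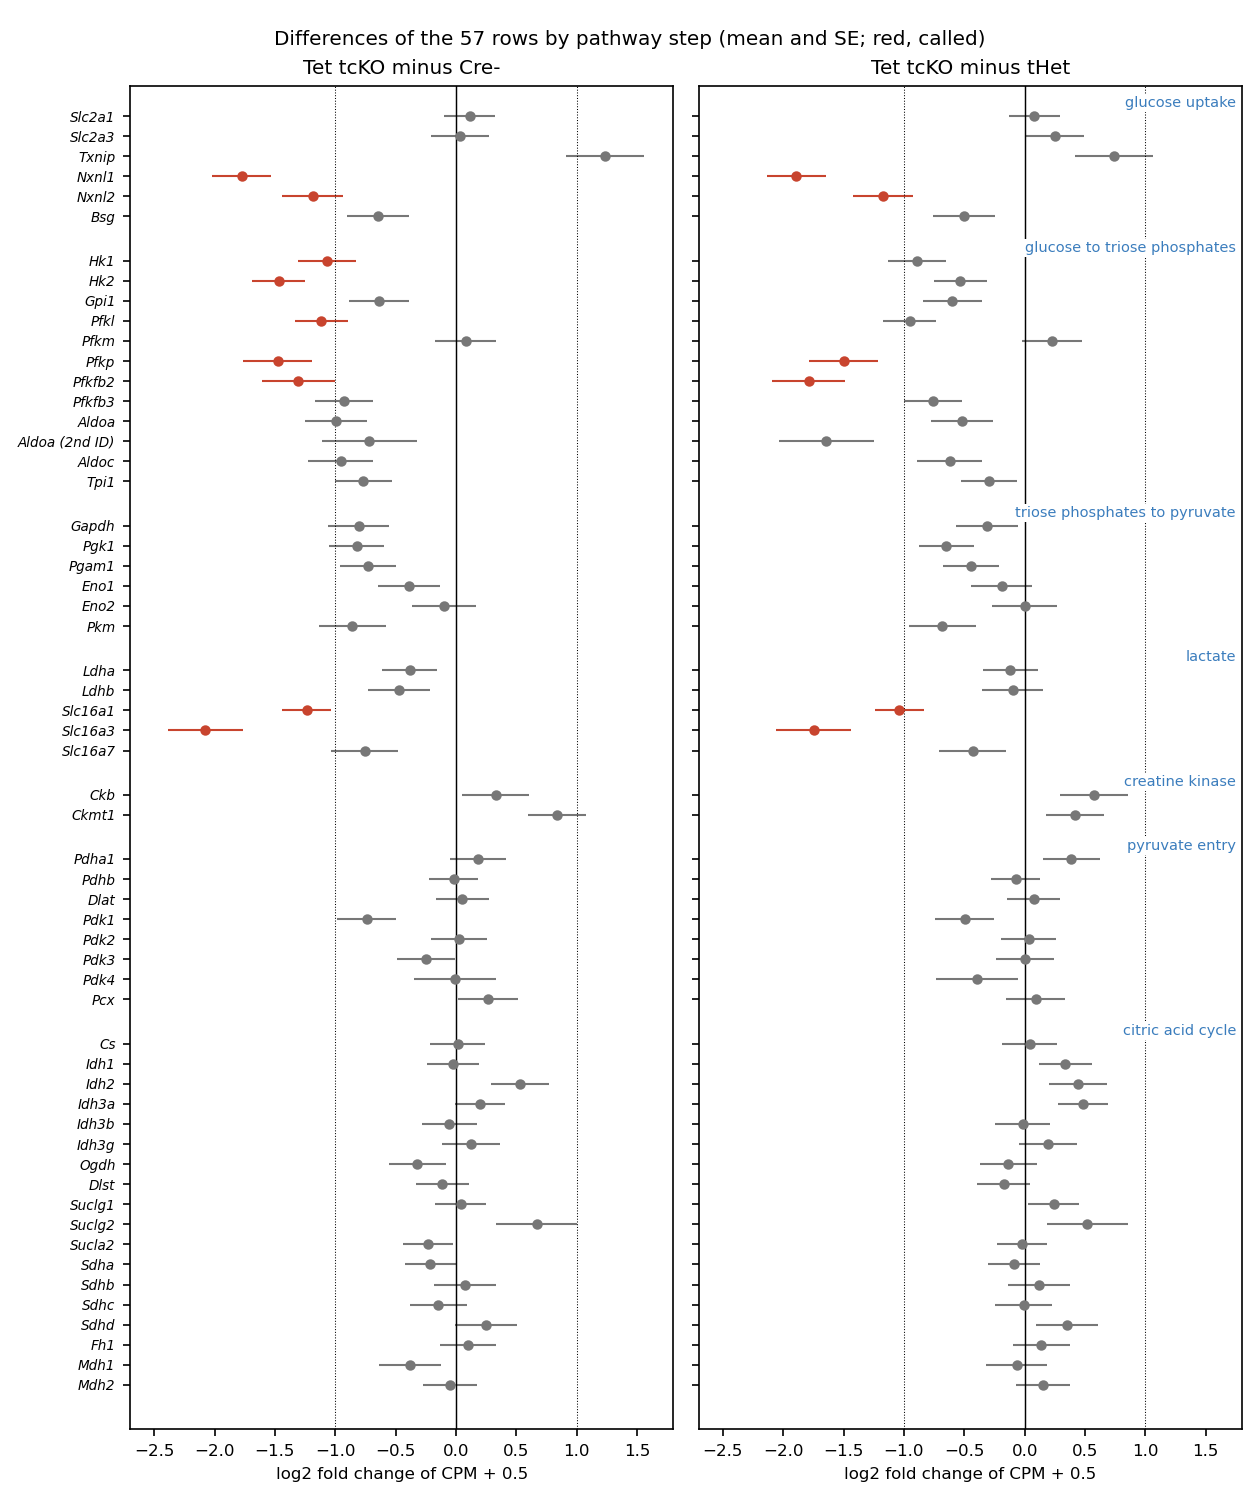
Log2 fold change of CPM + 0.5 with its SE for each of the 57 rows, ordered by pathway step, for Tet tcKO minus Cre- (left) and Tet tcKO minus tHet (right), with called rows in red and dotted lines at the fold threshold. The red points lie in the uptake group (Nxnl1 and Nxnl2), the first glycolytic steps and lactate transport. The citric acid cycle rows lie between -0.38 and 0.67 on the left and between -0.17 and 0.52 on the right.

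Pyruvate entry and the citric acid cycle held no called member among 26 rows, against 3.60% of all tested genes, so that this count is near the background. At an unadjusted p under 0.05 by limma, Pdk1 was lower and Idh2 higher, against 7.47% and 8.59% of all tested genes. By edgeR and DESeq2 0 of the 26 were called as well, with Pdk1 short of the fold threshold at a DESeq2 adjusted p of 0.00147. The median log2 fold change of the 18 cycle genes was -0.01 in CPM and 0.15 with CT010467.1 left out of the totals, beside 0.14 for all tested genes on that scale. Sdha, which encodes the flavoprotein of succinate dehydrogenase and was the most abundant cycle gene, measured 200.5, 193 and 193 CPM in Cre-, 190.3, 144 and 210.0 CPM in tHet, and 189, 174 and 146 CPM in Tet tcKO. The Tet tcKO values lay just under those of Cre- and within those of tHet (log2 fold change against Cre- -0.21 ± 0.21, adjusted p = 0.78 by limma). Pdha1, a subunit of the pyruvate dehydrogenase complex that feeds the cycle, lay between 66.3 and 128 CPM over the 9 libraries and overlapped between genotypes.

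The creatine kinases buffer ATP in neurons. Ckmt1, the mitochondrial form, measured 86.1, 76.0 and 66.0 CPM in Cre-, 107, 107 and 90.4 CPM in tHet, and 199, 122 and 102 CPM in Tet tcKO. Both Cre-bearing genotypes lay above Cre-, and the log2 fold change of Tet tcKO was 0.84 ± 0.24 at an adjusted p of 0.036 by limma, short of the call. The cytosolic Ckb had a Cre- mean of 622 ± 113 CPM beside 809 ± 292 for Tet tcKO, and their libraries overlapped.

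Ratios of 2 genes within a library do not depend on the total, so CT010467.1 cannot move them. The summed CPM of the 29 rows of uptake, glycolysis and lactate was 7.38, 7.29 and 7.50 times that of the 18 cycle rows in Cre-, 7.37, 7.42 and 6.61 times in tHet, and 4.31, 5.10 and 4.42 times in Tet tcKO. The 3 Tet tcKO libraries stood apart below the other 6. This sum is given as a description, since its members were chosen.

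Isozyme ratios were compared for 15 pairs of related members in 3 comparisons by an exact two-sided permutation test over libraries, in which 3 against 3 cannot give a p below 0.1. In 14 of the 45 comparisons the libraries did not overlap and p reached 0.1, the smallest possible, or 0.32 after adjustment over the 45. A share of 0.1 of the label orders reaches that p, and the 45 comparisons share libraries, so the count was not tested against a background. The CPM of Pfkm was 0.462 ± 0.0529 (SD, n = 3) times that of Pfkl in Cre-, 0.470 ± 0.0755 times in tHet and 1.09 ± 0.351 times in Tet tcKO. The log2 ratio was -0.97, -1.30 and -1.08 in Cre-, -1.34, -1.08 and -0.88 in tHet, and 0.58, -0.16 and -0.18 in Tet tcKO, with no overlap. Pfkm shares 7.43% of its windows with Gm26513, which overlaps its exons on the same strand, and Pfkl shares none. Hk2 to Hk1 stood at log2 ratios of -0.997, -1.06 and -0.87 in Cre-, -1.59, -1.75 and -1.86 in tHet, and -1.32, -1.47 and -1.34 in Tet tcKO. The lowest values were those of tHet, and all 3 genotypes were separate. Pdk2 to Pdk1, kinases that switch off pyruvate dehydrogenase, averaged 0.913 ± 0.198 times in Cre-, 1.07 ± 0.187 times in tHet and 1.55 ± 0.203 times in Tet tcKO, with Tet tcKO above both. Nxnl2 to Nxnl1 averaged 0.217 ± 0.0161 times in Cre- and 0.331 ± 0.0845 times in Tet tcKO, and the tHet libraries overlapped the latter. The log2 ratios of Idh2 to Idh1, Mdh2 to Mdh1 and Suclg2 to Sucla2 were higher in every Tet tcKO library than in every Cre- library, by 0.57, 0.33 and 0.98 in the mean. Pfkfb3 to Pfkfb2 was higher in Tet tcKO than in tHet by 1.03, and in tHet against Cre- Ckmt1 to Ckb was higher by 0.67 and Slc2a3 to Slc2a1 lower at -0.26.

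**Figure D3:**
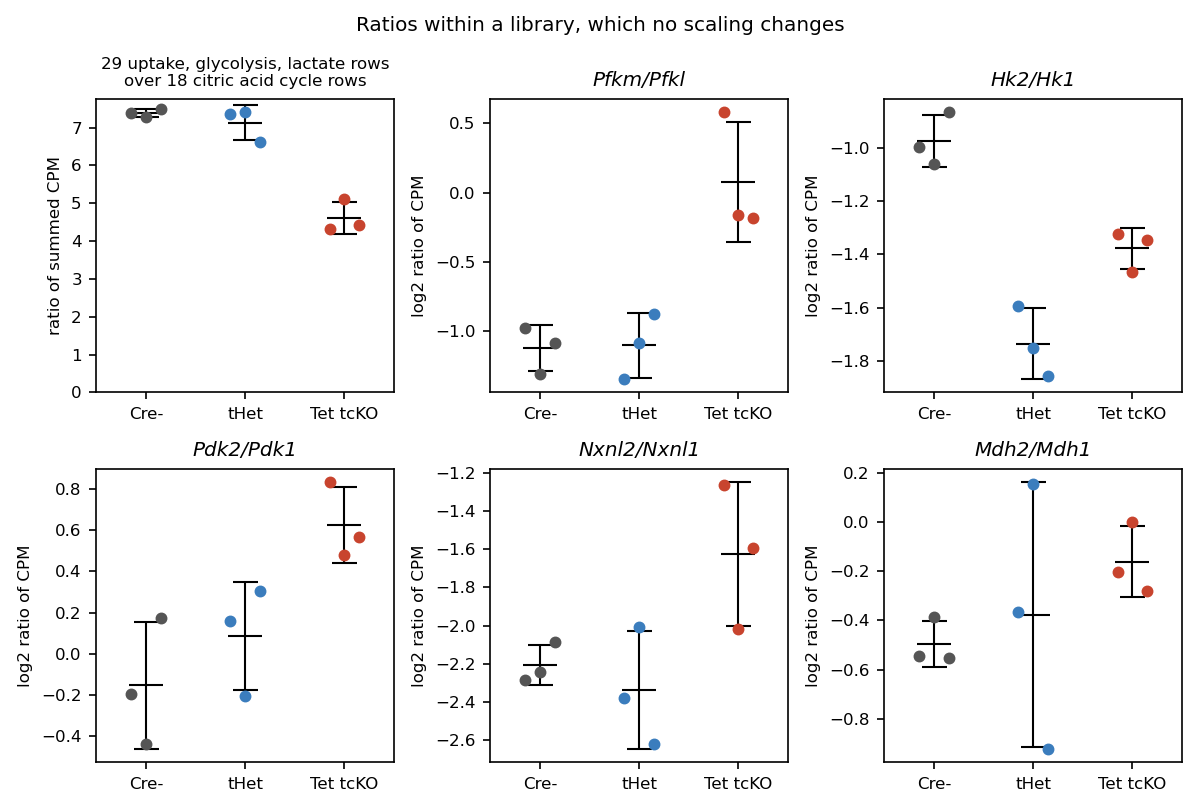
Ratios within each library by genotype, with 1 point per library and the mean and SD of 3 libraries in black. The first panel is the ratio of the summed CPM of 29 and 18 rows on a linear axis from 0, where Tet tcKO lies between 4.31 and 5.10 and the other libraries between 6.61 and 7.50, and the other 5 panels are log2 ratios of CPM of paralogs on axes that do not start at 0.

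Tet tcKO was also compared with tHet, which carries the same Cre transgene. By the same rule 6 members were called lower and 0 higher: Nxnl1, Nxnl2, Pfkp, Pfkfb2, Slc16a1 and Slc16a3. The background was 1.61% lower and 1.39% higher, or 3.00% in all. The comparisons share the Tet tcKO libraries and are not independent. At an adjusted p under 0.05 with no fold threshold 9 members were lower and 0 higher, against 3.43% and 2.52% of all tested genes, and at an unadjusted p under 0.05 the members were 15 and 2, against 10.6% and 6.90%. In 15 rows every Tet tcKO library lay below every tHet library and in 3 above, against 9.68% and 7.35%. In 35 rows the log2 fold change was below 0, against 55.7%. With CT010467.1 left out of the totals the split of calls over all tested genes moved from 297 higher and 343 lower to 424 and 215. The log2 fold changes against tHet were -1.89 ± 0.24 for Nxnl1 (adjusted p = 4.9e-05), -1.17 ± 0.25 for Nxnl2 (0.0054), -1.79 ± 0.30 for Pfkfb2 (0.00065), -1.04 ± 0.20 for Slc16a1 (0.0028) and -1.75 ± 0.31 for Slc16a3 (0.0012). Pfkp in Tet tcKO was 36.3% of its tHet mean, at an adjusted p of 0.0021. Pfkl fell just short at -0.95 ± 0.22 with an adjusted p of 0.010, and Hk1 stood at -0.89 ± 0.24 with 0.028. Hk2 differed by -0.53 ± 0.22 at an adjusted p of 0.19. A second Aldoa row (ENSMUSG00000114515.2, chr7:126800790-126809108, minus strand), upstream of the main gene, measured 7.95, 29.01 and 20.5 CPM in Cre-, 52.6, 36.7 and 17.5 CPM in tHet, and 8.13, 12.9 and 9.57 CPM in Tet tcKO. Its Tet tcKO libraries lay below all of tHet, with a log2 fold change of -1.64 ± 0.39 and an adjusted p of 0.013. It was called in 6 of 20 other fits, among them DESeq2, the replicate block and the 6 libraries compared. The median log2 fold change of the 57 rows was -0.09 against -0.06 for all tested genes, and it turned to 0.06 against 0.07 with CT010467.1 left out of the totals. The count of members was 3 without tHet replicate 1, 3 without tHet replicate 2, 1 without Tet tcKO replicate 1 and 1 without Tet tcKO replicate 3. Calls against tHet over all tested genes went from 640 to 339, 459, 287 and 373 in the same fits, in that order.

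The calls rested on the libraries to different degrees. Over 20 other fits, Nxnl1, Hk2, Slc16a1 and Slc16a3 were called against Cre- in every one, and against tHet only Nxnl1 was. Against Cre-, Nxnl2 lost the call without Cre- replicate 2, Cre- replicate 3, Tet tcKO replicate 1 or Tet tcKO replicate 3, at log2 fold changes of -1.29 to -1.03 and adjusted p of 0.0129 to 0.0371. Pfkfb2 lost it without the same 4 libraries, at -1.23 to -1.11 and 0.0302 to 0.0918. Pfkp lost it without Cre- replicate 3, Tet tcKO replicate 1 or Tet tcKO replicate 3, at -1.44 to -1.25 and 0.0127 to 0.0303. Pfkl lost it without those 3 libraries or Cre- replicate 1, at -1.16 to -0.94 and 0.00897 to 0.0163. Hk1 lost it without any one Cre- library, tHet replicate 1, Tet tcKO replicate 1 or Tet tcKO replicate 3, at -1.16 to -0.85 and 0.00968 to 0.0377. Against tHet, Nxnl2, Pfkp and Slc16a1 lost the call without tHet replicate 1, tHet replicate 2, Tet tcKO replicate 1 or Tet tcKO replicate 3, at log2 fold changes of -1.27 to -0.97, -1.42 to -1.27 and -1.09 to -0.92 and adjusted p up to 0.0449. Pfkfb2 and Slc16a3 lost it without the latter 2, at -1.68 to -1.63 and -1.67 to -1.41 and adjusted p up to 0.0279. Slc16a1 against tHet also missed the fold threshold with TMM scaling, without CT010467.1 in the totals, in edgeR and in DESeq2, at -0.98 to -0.90. Against Cre-, the members not called without CT010467.1 in the totals were Hk1, Pfkl and Pfkfb2. Every one of these values was below 0.

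Within Tet tcKO the libraries were not alike, and replicate 2 held the most rod RNA, with a rod sum of 11283 CPM against 3312 and 5612 CPM in replicates 1 and 3. The same replicate held the most Pfkp (279.6 CPM), Pfkfb2 (42.5 CPM), Nxnl1 (125 CPM), Pfkl (133 CPM) and Slc16a3 (9.09 CPM) of the 3. Replicate 1, with the least rod RNA and the largest cone sum at 2718 CPM, held the most Ckmt1 (199 CPM), Pfkm (149.99 CPM) and Ckb (1098 CPM). In CPM it also held the most of many other members, among them Pkm (1028 CPM), Ldha (357 CPM), Mdh1 (145 CPM) and most other citric acid cycle genes. That order was therefore not particular to Ckmt1, Pfkm and Ckb. Hk2 and Nxnl2 did not follow the rod order, with Hk2 at 145 CPM in replicate 1 and 140.5 CPM in replicate 2 and Nxnl2 at 32.8 and 31.0 CPM. With CT010467.1 left out of the totals Slc16a1 was highest in replicate 3, at 97.7 CPM against 88.2 and 91.1 CPM. With 3 libraries these orders are values side by side and no relation was tested.

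**Figure D4:**
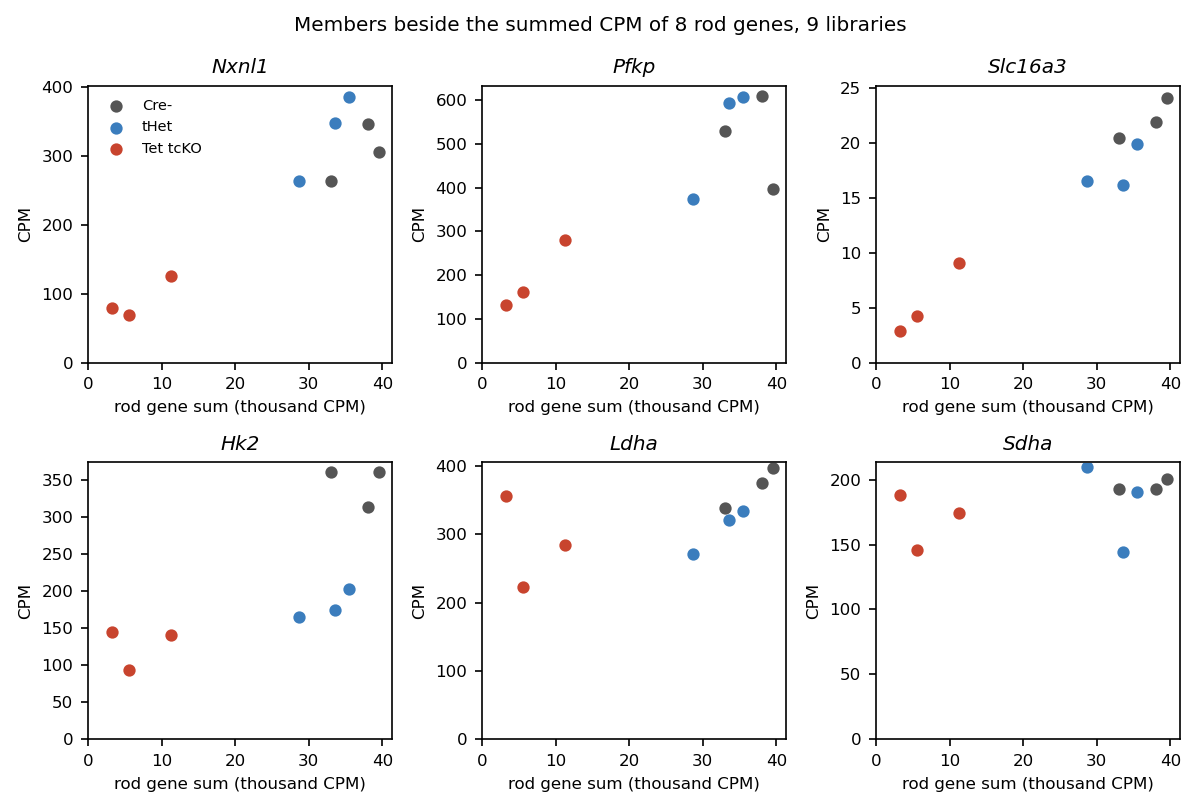
CPM of 6 members (y axis) against the summed CPM of 8 rod genes (x axis), with 1 point per library coloured by genotype and both axes from 0. Tet tcKO lies at rod sums of 3312 to 11283 CPM with low Nxnl1, Pfkp and Slc16a3, tHet lies at rod sums near those of Cre- with Hk2 of 164 to 202 CPM, the Ldha libraries of Tet tcKO overlap those of both other genotypes, and those of Sdha lie just under Cre- and overlap tHet.

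The comparison of tHet with Cre- asked what 1 lost copy of each Tet gene in the presence of Cre went with. No member was called by limma or edgeR, and DESeq2 called Hk2 alone. At an unadjusted p under 0.05 Hk2 was lower and the second Aldoa row higher, against 0.966% and 3.58% of all tested genes, and 0.0422% of all tested genes were called in this comparison, all of them higher. Hk2 in tHet was 52.3% of its Cre- mean with no overlap, a log2 fold change of -0.94 ± 0.22 at an adjusted p of 0.19. Over the 20 other fits its value stayed between -1.02 and -0.87, and its adjusted p ranged from 2.3e-05 in DESeq2 to 0.70 without Cre- replicate 3. With limma it was 0.0287 without CT010467.1 in the totals and 0.0383 with a replicate block, and it was also under 0.05 with upper-quartile scaling. In the same tHet libraries the ciliary body and stroma sum was 153 to 230.3 CPM against 37.3 to 63.7 CPM in Cre-, with Optc and Col9a1 called higher, and its part in the Hk2 value was not tested. In the 57 rows 44 values were below 0, against 41.8% of all tested genes, with a median of -0.16 against 0.06. In 12 rows every tHet library lay below every Cre- library and in 1 above, against 5.37% and 5.78%. In the limma fit on CPM no member passed an adjusted p under 0.05, against 0.0938% of all tested genes higher and 0% lower, while 1 was lower and 1 higher at an unadjusted p under 0.05.

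Other genes of these pathways were read from a list of 80, of which 75 passed the filter. In Tet tcKO against Cre- 3 were called higher and 1 lower, against 2.03% and 1.57% of all tested genes, so that both counts are near the background. Slc25a13, a mitochondrial carrier that exchanges aspartate for glutamate, had means of 1.07 ± 0.0507 CPM (Cre-) and 5.08 ± 1.14 (Tet tcKO, SD, n = 3, limma adjusted p = 0.0011). Slc2a4, which encodes the insulin-responsive transporter GLUT4, averaged 0.586 ± 0.132 and 2.67 ± 0.873 CPM (limma adjusted p = 0.0069). Neither Slc25a13 nor Slc2a4 was called against tHet, at limma adjusted p of 0.012 and 0.028. Slc16a6, another member of the monocarboxylate transporter family, was lower at 53.9 ± 15.5 and 25.0 ± 5.93 CPM (limma adjusted p = 0.0070). Against tHet, Slc16a6 and Ppargc1b, a coactivator of mitochondrial genes, were the 2 called lower, against 1.61% of all tested genes, Ppargc1b with a tHet mean of 104 ± 21.4 CPM beside 42.4 ± 4.05 for Tet tcKO. The median log2 fold change of the 75 genes against Cre- was -0.10.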

How the data were processed

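Total RNA of whole retina, depleted of ribosomal RNA, was sequenced in 9 libraries that were pooled for sequencing. Per the labels and the methods of the study, the authors trimmed reads with Trim Galore 0.6.7, aligned them to mm10 with STAR 2.7.0f, counted them on genes with HTSeq 0.11.2 and compared genotypes with edgeR 4.2.2. The annotation release and the strand setting are not given in the sources used here. The authors deposited CPM per gene. All positive values came out as whole reads within 0.01, so counts were also recovered for the count tests. The 20 columns of the authors' own comparisons, calls and means, which hold log2 fold changes, p-values and FDR values deposited from edgeR, were not used. The test took genes that reached 0.5 CPM in 3 or more libraries and used limma 3.58.1 on log2(CPM + 0.5), with 1 mean per genotype over all 9 libraries. Calls needed a log2 fold change beyond 1 in either direction together with an adjusted p below 0.01. Each library pools 2 animals, and libraries were the replicates. Alternatives were other pseudocounts, filters, scalings, edgeR 4.0.16 and DESeq2 1.42.0 in R 4.3.3, a replicate block, only the 6 libraries compared, and leaving out each library. The per-library values were given for members past a threshold, for the most abundant member of each pathway step and for pairs of related members whose libraries did not overlap. Other pathway genes were named where called, except 1 that is not reported here. Coordinates and exon lengths came from GENCODE M21 and promoters from RefSeq on GRCm38.p6. The members and lists were chosen with earlier results of these data known.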

Additional observations from a re-analysis of the deposited data

How the results depend on the processing

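Of the members named in the 2 comparisons of Tet tcKO, 22 values in each were recomputed under 20 alternatives. Against Cre- 401 of 440 values kept their direction and side of the threshold, and against tHet 405 of 440 did. Leaving out one library each, members called ranged from 4 to 10 for Tet tcKO against Cre- and from 1 to 8 against tHet, and were 0 throughout for tHet against Cre-. In the same fits, calls over all tested genes ranged from 360 to 976 for Tet tcKO against Cre- and from 287 to 959 against tHet. Without the filter on low values, which tests more genes, 4 members were called against Cre- in place of 9. At an adjusted p under 0.05 with no fold threshold 15 were called, 2 higher and 13 lower. DESeq2 called 1 member in tHet against Cre-, and the cause of the difference from limma was not tested.

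Against tHet, with CT010467.1 left out of the totals, the log2 fold change of Ldha turned from -0.12 to 0.0251 and that of Sdha from -0.09 to 0.0555. Leaving out one library each, Ldha ranged from -0.28 to 0.0519 and Sdha from -0.25 to 0.0260 against tHet, and Pdha1 from -0.0442 to 0.41 against Cre-. The isozyme ratios were recomputed without each library, but with 3 libraries that shift is bounded by the SD itself and bears on no stability.

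Libraries of the same number are not from shared animals, and their deviations correlated from -0.35 to 0.56 over 9 pairs, so the numbers were not taken to pair the libraries. With the replicate block 10 members were called against Cre-, 9 lower and Txnip higher, 7 against tHet and 0 in tHet against Cre-. Over all tested genes 768 were called against Cre-, 640 against tHet and 9 in tHet against Cre-. The counts in that order were 417, 351 and 1 without the filter, 1145, 1046 and 40 by DESeq2, 1127, 1125 and 40 with the replicate block, and 980, 1013 and 1 with only the 6 libraries compared, and tHet against Cre- gave 1 with upper-quartile or TMM scaling, without CT010467.1 in the totals or by edgeR. At 3 libraries a genotype, a difference that misses the threshold may still exist.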

Other observations

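Hk2 and Hk1 lie on the chromosomes of Tet3 and Tet1, which was looked up after their values were seen. Hk2 is 588 kb from Tet3 on chromosome 6 and Hk1 is 425 kb from Tet1 on chromosome 10. Of 44 tested genes within 1 Mb of Tet3, Hk2 had the lowest log2 fold change in tHet against Cre- at -0.94. It was the single one lower at an unadjusted p under 0.05, while Slc4a5, a bicarbonate transporter 57 kb from Tet3, was the single one higher at 0.71 (limma with Benjamini-Hochberg adjustment, adjusted p = 0.83). Of all tested genes 0.966% were lower and 3.58% higher at that unadjusted p, so both counts are near the background. The window was drawn with the Hk2 value known, so the place of Hk2 in it is no separate result. Of 36 tested genes within 1 Mb of Tet1 and 14 within 1 Mb of Tet2, none passed an unadjusted p under 0.05 by limma in that comparison, and Hk1 stood at -0.18. Whether position has a part in the value of Hk2 was not tested.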
